A study of Mus musculus with 20 samples.

Results

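The 10 genes described here make up the MHC class I antigen presentation route: B2m, H2-K1, H2-D1, H2-T23, Tap1, Tap2, Tapbp, Psmb8, Psmb9 and Nlrc5. They were chosen by name for their known roles, with earlier results of these data in view, and are 10 of 39056 genes in the deposited table. All 10 were among the 16107 genes that passed the filter on low counts. The data were RNA-seq counts from the left hippocampus of 20 female C57BL/6 mice, 5 in each of 4 groups. WT Non-Tg mice carried both copies of Mir34a (miR34a+/+) and no transgene, and KO Non-Tg mice lacked miR-34a (miR34a-/-) in the whole body. WT Tg-SwDI and KO Tg-SwDI mice had these same genotypes and also carried the Swedish, Dutch and Iowa mutant human APP transgene under the Thy1 promoter, which is active mainly in neurons and which models the cerebral amyloid of Alzheimer's disease. The mice were perfused with saline at collection, and were tested for behavior at 12 months of age before tissue was taken.

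MHC class I molecules display short peptides from inside the cell to CD8+ T cells. The proteasome cuts proteins into peptides, the TAP transporter carries them into the endoplasmic reticulum, and tapasin holds an empty class I heavy chain beside TAP until a peptide is loaded. Heavy chains reach the cell surface only when paired with beta-2-microglobulin, and interferons raise the transcription of the whole route. In the brain, class I genes are expressed by microglia, endothelium and some neurons, and they are also known for roles in the pruning of synapses.

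The 20 libraries held 19549622 to 21066868 counts each. Levels are given as CPM, counts scaled to a common library total, with TMM factors that correct for the make-up of each library. Levels of Thy1 are the exception, as CPM without TMM factors. Thy1, whose promoter drives the transgene, ranged from 692 to 768 CPM without it. With it, Thy1 ranged from 1962 to 2323 CPM in WT and from 2517 to 2989 CPM in KO animals, so that the Tg-SwDI groups did not overlap, and the part of this difference in the results below was not tested. The library of KO Tg-SwDI mouse 8 stood apart, with 14.6% of its counts on mitochondrial genes against 6.94% to 8.76% in the other 19 mice. Levels of miR-34a were not analysed here. Symbols and positions are from GENCODE M21 on GRCm38 (mm10), and single mice carry the numbers of their labels.

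The 8 genes other than B2m and Nlrc5 lie in the H2 region of chromosome 17. Tapbp (chr17:33915899-33929292) is followed by H2-K1 (chr17:33996017-34000347), Psmb9 (chr17:34181987-34187764), Tap1 (chr17:34187553-34197225), Psmb8 (chr17:34197721-34201454) and Tap2 (chr17:34203527-34216321). H2-D1 (chr17:35262730-35267499) and H2-T23 (chr17:36029773-36032855) lie further along. B2m lies at chr2:122147686-122153083 and Nlrc5 at chr8:94434356-94527272. B2m lies inside the annotated span of Patl2 on the opposite strand, but Patl2 held only 0 to 4 counts per mouse against 1894 to 9144 for B2m. Tapbp shares 3422 bases with Zbtb22 on the same strand, which held 649 to 868 counts per mouse, and Tap1 and Psmb9 share 212 bases on opposite strands. The heavy chain genes are paralogs, and their transcripts were not compared here. How reads that match several genes were counted is not given in the sources used here, so the single values of these genes are uncertain.

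The absent microRNA is shown first, because its direct targets usually hold a match to its seed. The mature strand of miR-34a (RefSeq, GRCm38.p6, chr4:150068473-150068494, plus strand) is printed with its seed, bases 2 to 8, in capitals. Below it stand the matches to that seed in members' 3'UTRs, 7 bases in capitals with their flanks, from the GENCODE M21 transcripts.
mmu-miR-34a-5p: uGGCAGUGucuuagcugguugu
H2-D1: ccctatccctgCACTGCCctgtgttccct
Nlrc5: gccctctcagtCACTGCCtggtcagttcc
The H2-D1 match lies in exon 8 of 8, at position 174 of a 3'UTR of 629 bases (chr17:35267044-35267050, plus strand). The Nlrc5 match lies at position 23 of a 3'UTR of 157 bases in a short alternative coding transcript, in exon 31 of 31 (chr8:94506807-94506813, plus strand). Over any coding transcript, 2 of the 10 members held a match, against 20.7% of 21020 genes. In the longest 3'UTR of each gene, 1 of the 10 did (H2-D1), against 19.8% of all genes. B2m, which gave the firmest result below, held none in its 448 bases. A match is a description of letters and not a shown site.

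Promoters are shown because the members moved together. RefSeq promoters on GRCm38.p6, from 250 bases before to 50 bases after each start, were found for 8 of the 10 members, all but Tap2 and Nlrc5. The core of the interferon-stimulated response element, GAAA and GAAA set 2 bases apart on either strand, stood in 2 of these 8 (B2m and H2-T23), against 4.0% of 27025 genes. The NF-kappaB consensus stood in 3 of 8 (B2m, H2-K1 and H2-D1), against 9.6% of genes, and CCAAT, bound by NF-Y of the class I enhanceosome, in 7 of 8, against 41.1%. Capitals mark the motif in each window, with the interferon element in B2m and H2-T23, the NF-kappaB motif in H2-K1 and H2-D1, and CCAAT in Tap1.
B2m: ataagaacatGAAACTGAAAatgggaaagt
H2-T23: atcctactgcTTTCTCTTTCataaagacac
H2-K1: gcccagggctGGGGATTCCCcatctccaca
H2-D1: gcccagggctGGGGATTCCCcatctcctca
Tap1: gctcggctttCCAATcagcggctgc
The B2m motif lies at chr2:122147548-122147557 and the H2-T23 motif at chr17:36032816-36032825, the latter on the opposite strand of the promoter. In H2-K1 (chr17:34000449-34000458) and H2-D1 (chr17:35262923-35262932) the windows were identical at 29 of 30 bases, and the motif matched there in both directions and again 1 base along. The CCAAT motif of Tap1 at chr17:34187334-34187338 is also the only one found in the promoter of Psmb9, where it lies on the other strand. No binding was measured.

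Class I genes were low in Non-Tg mice of both genotypes, higher in WT Tg-SwDI mice and highest in KO Tg-SwDI mice. The group means stood in that order, with KO Non-Tg lowest, for 10 of 10 members. B2m, the light chain that every class I molecule needs, had the highest level per kilobase, at 143 ± 28.3 CPM per kb (SD, n = 5) in WT Non-Tg and 457 ± 85.5 in KO Tg-SwDI mice. H2-D1 and H2-K1 followed in KO Tg-SwDI mice at 46.5 ± 17.1 and 26.1 ± 8.73 CPM per kb, a pair whose spreads overlapped. The lowest was Nlrc5, the transactivator of class I genes, at 0.169 ± 0.0428 CPM per kb in WT Non-Tg and 0.438 ± 0.266 in KO Tg-SwDI mice.

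**Figure D1:**
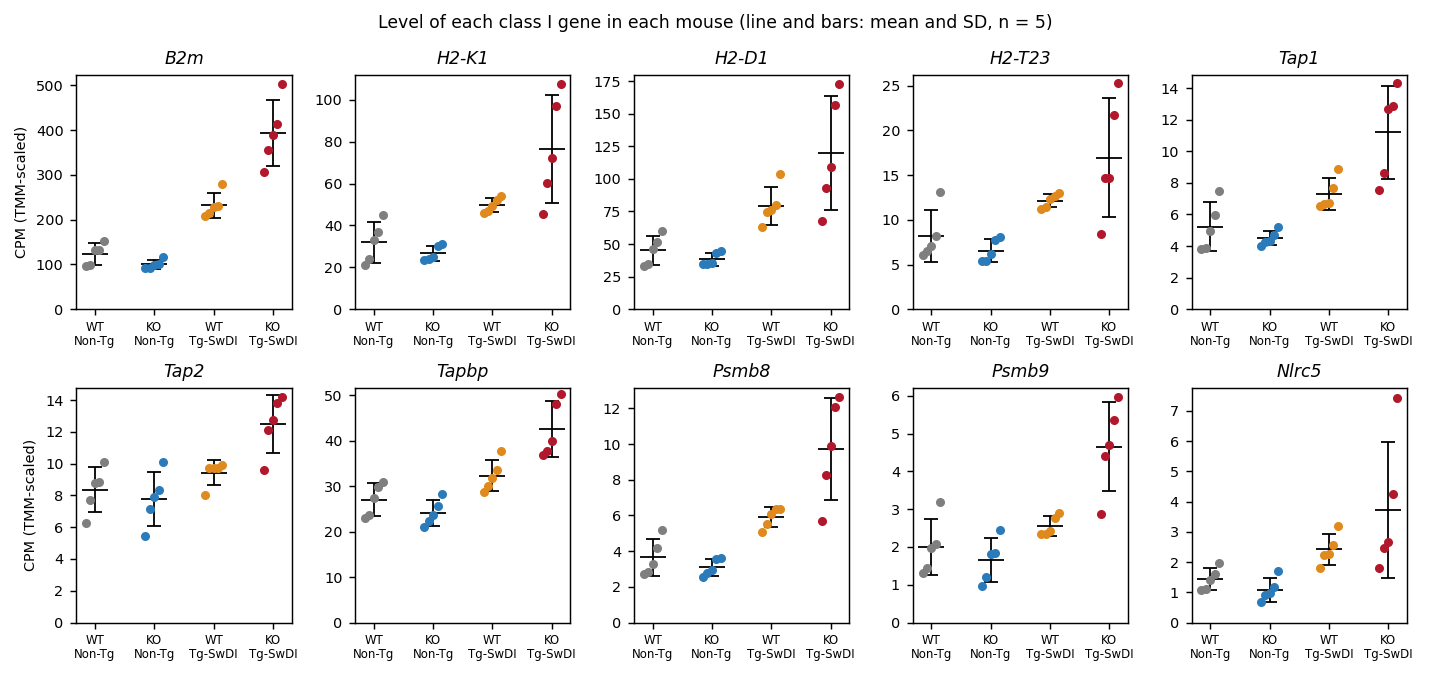
TMM-scaled CPM of each member (y axis, from 0) in each of the 20 mice, by group (x axis). Points are mice, and lines with bars are means ± SD of 5 mice. B2m rises from 91.3 to 153 CPM in Non-Tg mice to 306 to 503 CPM in KO Tg-SwDI mice, and all KO Tg-SwDI mice lie above all WT Tg-SwDI mice for B2m alone.

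The first comparison asked what the loss of miR-34a did in mice with amyloid. In KO Tg-SwDI against WT Tg-SwDI mice, 4 of the 10 members were called higher and 0 lower, where 1.48% of all 16107 genes were called higher. The 4 were B2m, the light chain, Psmb8 and Psmb9, the catalytic subunits that interferon places into the proteasome, and Tapbp, which encodes tapasin. All 10 log2 fold changes were positive, from 0.40 to 0.87, with a median of 0.63 against 0.003 over all genes, and 9 of the 10 had an unadjusted p under 0.05. Calls are by edgeR's quasi-likelihood test with a Benjamini-Hochberg adjusted p under 0.05 over all genes tested.

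B2m showed the only separation between these groups. The WT Tg-SwDI mice lay at 209, 214, 228, 230.0 and 278 CPM, and the KO Tg-SwDI mice at 306, 355, 388, 412 and 503 CPM. The groups did not overlap, which held for 1 of 10 members where 2.04% of all genes lay higher without overlap. The log2 fold change was 0.76 (SE 0.136, edgeR adjusted p = 0.0106), a 1.69-fold difference.

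The induced proteasome subunits came next. Psmb8, which replaces Psmb5 and favors peptides that fit class I grooves, lay at 5.10, 5.54, 6.08, 6.36 and 6.38 CPM in WT Tg-SwDI mice and at 5.67, 8.25, 9.91, 12.1 and 12.7 CPM in KO Tg-SwDI mice. Only KO mouse 8, at 5.67 CPM, fell within the WT range. Its log2 fold change was 0.72 (SE 0.179, edgeR adjusted p = 0.0401). Psmb9, which replaces Psmb6, lay at 2.35, 2.35, 2.41, 2.77 and 2.90 CPM in WT and at 2.86, 4.41, 4.69, 5.36 and 5.96 CPM in KO Tg-SwDI mice, again with KO mouse 8 alone inside the WT range. Its log2 fold change of 0.87 (SE 0.220, edgeR adjusted p = 0.0411) was the highest of the members, on 48 to 126 counts per mouse.

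Tapbp gave the smallest of the called differences. It lay at 28.6, 30.1, 31.7, 33.5 and 37.7 CPM in WT and at 36.8, 37.6, 39.9, 47.9 and 50.1 CPM in KO Tg-SwDI mice, where 2 KO mice lay below the highest WT mouse. The log2 fold change was 0.40 (SE 0.103, edgeR adjusted p = 0.0468). Tap1 and Tap2, which together form the peptide transporter, did not pass. Tap1 lay between 6.52 and 8.88 CPM in WT and between 7.54 and 14.3 CPM in KO mice, with a log2 fold change of 0.62 (SE 0.172, edgeR adjusted p = 0.0585), and Tap2 gave 0.41 (SE 0.133, edgeR adjusted p = 0.101).

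The heavy chain genes had similar mean differences but a wide spread. H2-K1, a classical heavy chain, lay at 46.1, 46.7, 49.5, 52.0 and 54.2 CPM in WT and at 45.5, 60.5, 72.0, 97.0 and 108 CPM in KO Tg-SwDI mice. The WT mice differed by less than 10 CPM, while the KO mice ran from below all WT mice to far above them. The log2 fold change was 0.63 (SE 0.215, edgeR adjusted p = 0.130). H2-D1, the other classical heavy chain, lay at 62.8, 74.3, 75.8, 79.7 and 103 CPM in WT and at 67.3, 93.4, 109, 156 and 173 CPM in KO Tg-SwDI mice, with a log2 fold change of 0.60 (SE 0.227, edgeR adjusted p = 0.167). H2-T23 encodes Qa-1, the nonclassical molecule read by NK cell receptors, and its log2 fold change was 0.49 (SE 0.241, edgeR adjusted p = 0.283). Nlrc5 lay at 1.81, 2.22, 2.27, 2.58 and 3.20 CPM in WT and at 1.82, 2.46, 2.66, 4.25 and 7.43 CPM in KO Tg-SwDI mice. KO mouse 1 lay far above the rest, and the log2 fold change of 0.63 (SE 0.296, edgeR adjusted p = 0.253) fell to 0.22 without it.

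How many members passed depended on single mice and on the scaling. B2m was the only call with library sizes left unscaled, and also with trends of fold change over GC content and length removed. Over all genes tested, the log2 fold change of this comparison rose with GC content (Spearman's rho 0.33) and fell with exonic length (rho -0.19). Leaving out 1 mouse at a time gave 1 to 6 calls among the members, where 78 to 701 of all genes were called. B2m was called in each of the 20 fits. There was 1 call without WT Tg-SwDI mouse 3, 4, 5 or 7 or KO Tg-SwDI mouse 1 or 3, and there were 2 calls without WT Tg-SwDI mouse 6 or KO Non-Tg mouse 4, 7 or 8. Without KO Tg-SwDI mouse 8, the library with the high mitochondrial share, 6 members were called, with Tap1 (0.74, edgeR adjusted p = 0.0174) and Tap2 (0.49, edgeR adjusted p = 0.0487) added to the 4.

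**Figure D2:**
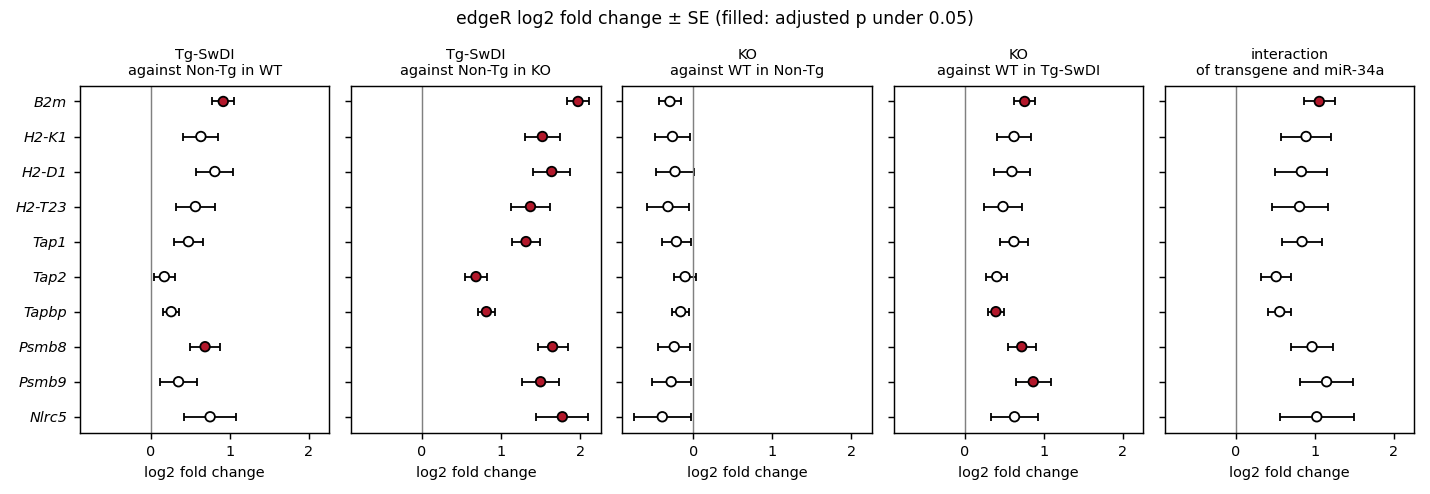
edgeR log2 fold change ± SE of each member (y axis) in the 4 comparisons of groups and in the interaction (panels, x axes in log2). Filled points have an adjusted p under 0.05. All 10 are filled for the transgene in KO mice, 4 for KO against WT in Tg-SwDI mice and none for KO against WT in Non-Tg mice.

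In mice without the transgene the loss of miR-34a gave no call. Of the 10 members, 0 were called by edgeR's quasi-likelihood test, and 0 also by DESeq2, the exactTest and the likelihood ratio test, where 0% of all genes were called lower. All 10 log2 fold changes were below 0, from -0.39 (Nlrc5) to -0.10 (Tap2), with a median of -0.25, and 1 had an unadjusted p under 0.05. That 1 was B2m, at 97.1, 98.3, 132, 133 and 153 CPM in WT and at 91.3, 93.0, 98.8, 99.98 and 117 CPM in KO Non-Tg mice, groups that overlapped (log2 fold change -0.29, SE 0.139, edgeR adjusted p = 0.616). WT Non-Tg mouse 7 had the highest value of its group for 9 of the 10 members. Choroid plexus markers also differed between these groups, at 304 to 6795 summed CPM in WT and 268 to 715 in KO Non-Tg mice. With the mean of those markers as a covariate, the log2 fold changes ran from -0.36 (Nlrc5) to 0.0322 (Tap1), B2m came to -0.0954 and H2-K1 to -0.0187, and H2-D1 and Tap1 were above 0.

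Whether the miR-34a effect differed between Tg-SwDI and Non-Tg mice was tested by the interaction. B2m alone was called, 1 of 10 members where 0.428% of all genes were called higher, with a log2 difference of 1.06 (SE 0.195, edgeR adjusted p = 0.0199). All 10 interaction estimates were positive, from 0.51 (Tap2) to 1.15 (Psmb9), with a median of 0.86 against 0.009 over all genes, and 10 of 10 had an unadjusted p under 0.05. Tapbp at 0.56 (SE 0.147, edgeR adjusted p = 0.0739), Psmb8 at 0.96 (SE 0.270, edgeR adjusted p = 0.0874) and Psmb9 at 1.15 (SE 0.332, edgeR adjusted p = 0.0938) came nearest to the threshold after it. Choroid plexus markers also had positive interaction estimates, 11 of 11, with a median of 2.75. Of these, 6 had an unadjusted p under 0.05 and 0 were called. With their mean as a covariate, the B2m interaction came to 0.86 and was still called. The B2m call was lost without WT Non-Tg mouse 2, KO Non-Tg mouse 7 or WT Tg-SwDI mouse 7 (edgeR adjusted p up to 0.0533), while 4 members were called without KO Tg-SwDI mouse 8, 3 without KO Tg-SwDI mouse 2, and 2 without WT Non-Tg mouse 3 or KO Non-Tg mouse 2. Over all genes, 14 to 500 were called with 1 mouse left out.

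The transgene itself was compared within each genotype. In KO mice, Tg-SwDI against Non-Tg gave 10 of 10 members higher, where 12.5% of all genes were called higher, and 9 of 10 without overlap, where 8.47% of genes were. Their median log2 fold change was 1.51. B2m gave 1.97 (SE 0.142, edgeR adjusted p = 5.87e-09), a 3.93-fold difference, from 91.3 to 117 CPM in Non-Tg to 306 to 503 CPM in Tg-SwDI mice. Nlrc5 gave 1.77 (SE 0.327), from 0.671, 0.918, 0.964, 1.18 and 1.72 CPM to 1.82, 2.46, 2.66, 4.25 and 7.43 CPM, so its Tg-SwDI mice all lay above its Non-Tg mice. Psmb8 gave 1.65 (SE 0.190), H2-D1 1.64 (SE 0.236), H2-K1 1.52 (SE 0.223), H2-T23 1.37 (SE 0.252) and Tap1 1.32 (SE 0.180). Psmb9 went from 0.964 to 2.44 CPM in Non-Tg to 2.86 to 5.96 CPM in Tg-SwDI mice. Tapbp, at 0.81 (SE 0.104), and Tap2, at 0.68 (SE 0.135), changed least, and Tap2 alone overlapped. Each of the 10 was also called when any 1 of the mice was left out, where 2495 to 3735 of all genes were called. Choroid plexus markers were higher in the same comparison, 9 of 11 called, with a median log2 fold change of 3.15. With their mean as a covariate 10 of 10 members were still called, B2m at 1.71.

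In WT mice the same comparison gave 2 of 10 members higher, where 3.94% of all genes were called higher. B2m gave 0.92 (SE 0.138, edgeR adjusted p = 0.000218), from 97.1 to 153 CPM in Non-Tg to 209 to 278 CPM in Tg-SwDI mice, and Psmb8 gave 0.69 (SE 0.191, edgeR adjusted p = 0.0383). B2m, H2-K1 and H2-D1 lay higher without overlap, 3 of 10 where 5.1% of all genes did. H2-D1 lay at 33.4, 34.4, 46.0, 51.6 and 60.1 CPM in Non-Tg and at 62.8 CPM or more in Tg-SwDI mice, with a log2 fold change of 0.81 (SE 0.233, edgeR adjusted p = 0.0636). All 10 log2 fold changes were positive, from 0.17 (Tap2) to 0.92, with a median of 0.60. The count moved between 1 and 4 when 1 mouse was left out, with 1 call without WT Non-Tg mouse 2, 3 or 6 or WT Tg-SwDI mouse 3, 4, 6 or 7, and 4 without WT Non-Tg mouse 7. Over all genes, 537 to 957 were called in those fits. The comparisons share groups with each other, so their values are given side by side only.

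Transcripts of induced and constitutive proteasome subunits were compared within each library, where scaling cancels. The exchange of subunits in the protein complex was not measured, and the part of cell make-up in these ratios was not tested. Each induced subunit was divided by the constitutive subunit it replaces, per kilobase and with 0.5 counts added, and log2 ratios were tested between groups by exact permutation (two-sided, 12 tests, smallest possible p = 0.00794). Psmb8 over Psmb5 lay at -5.36, -5.23, -5.16, -5.06 and -4.99 in WT Tg-SwDI mice and at -4.86, -4.56, -4.35, -4.13 and -4.04 in KO Tg-SwDI mice. The groups did not overlap, and the log2 difference was 0.77 (exact permutation p = 0.00794, adjusted p = 0.0190). Psmb9 over Psmb6 ran from -5.73 to -5.17 in WT and from -4.89 to -4.25 in KO Tg-SwDI mice, also without overlap, with a log2 difference of 0.85 (exact permutation p = 0.00794, adjusted p = 0.0190). In KO mouse 8 the induced Psmb8 and Psmb9 lay within the WT ranges. Its Psmb5 and Psmb6 stood at 44.0 and 43.7 CPM, where WT Tg-SwDI mice had 51.6 to 61.0 and 53.8 to 66.0 CPM. For that mouse, the lack of overlap thus came from low constitutive subunits.

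The remaining pair behaved in the same direction with less room. Psmb10 over Psmb7 lay at -0.51, -0.45, -0.44, -0.23 and -0.11 in WT and at -0.16, -0.12, 0.07, 0.14 and 0.15 in KO Tg-SwDI mice. The groups overlapped, and the log2 difference was 0.36 (exact permutation p = 0.0238, adjusted p = 0.0408). The means of both parts of this ratio differed, although neither gene was called by itself. Mean Psmb10 was 20.1 CPM in WT and 22.6 CPM in KO Tg-SwDI mice, and mean Psmb7 was 51.2 and 44.8 CPM. KO mouse 8 had Psmb10 at 17.1 CPM, below all WT Tg-SwDI mice, and Psmb7 at 32.6 CPM, where WT mice had 46.1 to 55.0 CPM. The other KO Tg-SwDI mice had Psmb7 at 46.0 to 49.7 CPM. The call of the Psmb10 over Psmb7 ratio was lost in 7 of the 10 fits with 1 mouse left out, those without WT Tg-SwDI mouse 3, 5, 6 or 7 or KO Tg-SwDI mouse 1, 3 or 8 (exact permutation adjusted p up to 0.0680). In Non-Tg mice KO and WT differed by -0.24, -0.24 and -0.02 for the pairs in this order (exact permutation adjusted p = 0.392, 0.619 and 0.762). Within WT mice the transgene raised Psmb8 over Psmb5 by 0.74 (exact permutation adjusted p = 0.0317), while Psmb9 over Psmb6 differed by 0.48 (exact permutation adjusted p = 0.143). At about -4 to -7 on the log2 scale, the induced Psmb8 and Psmb9 were far below their constitutive partners per kilobase in each of the 4 groups.

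**Figure D3:**
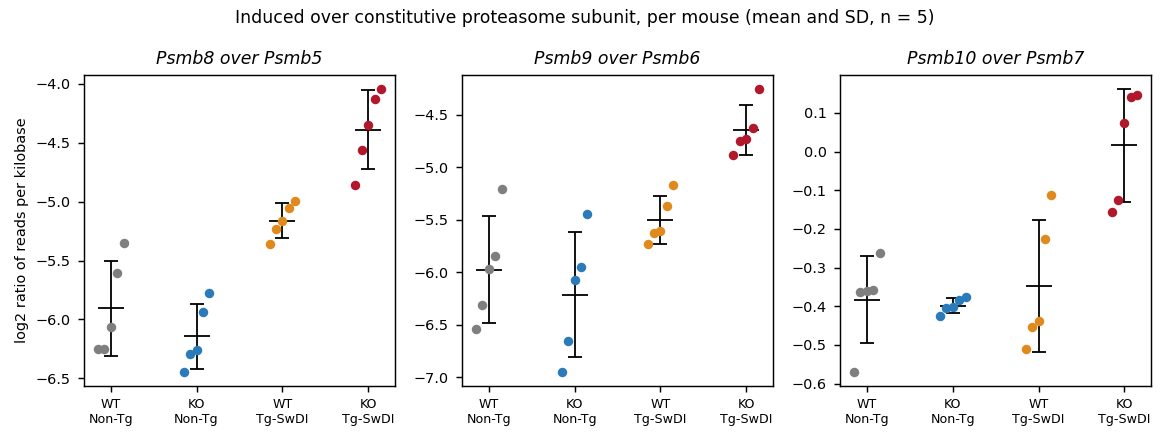
Log2 ratio of reads per kilobase of induced over constitutive proteasome subunit (y axes, log2) in each mouse, by group. Lines with bars are means ± SD of 5 mice. KO Tg-SwDI mice lie above all WT Tg-SwDI mice for Psmb8 over Psmb5 and for Psmb9 over Psmb6, and overlap them for Psmb10 over Psmb7.

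Other genes of the route were counted from lists by role, in KO against WT Tg-SwDI mice. Of 3 inducible proteasome genes, 1 was called higher, Psme1, a subunit of the PA28 cap that interferon induces. It lay between 26.0 and 30.4 CPM in WT and between 31.9 and 41.3 CPM in KO Tg-SwDI mice, without overlap (log2 fold change 0.30, SE 0.0628, edgeR adjusted p = 0.0145), and it was also called in the interaction (0.44, SE 0.0893, edgeR adjusted p = 0.0214). Without WT Tg-SwDI mouse 7 its KO against WT difference missed the threshold (edgeR adjusted p = 0.0519). Its interaction call was lost without WT Non-Tg mouse 2 or 4, KO Non-Tg mouse 7 or WT Tg-SwDI mouse 7 (edgeR adjusted p up to 0.0660), with the choroid plexus covariate (edgeR adjusted p = 0.0634) and with GC and length trends removed (0.28, edgeR adjusted p = 0.194). Psme2, its partner in the cap, gave 0.17 (edgeR adjusted p = 0.213), and Psmb10, the remaining induced subunit, 0.17 (edgeR adjusted p = 0.361). Of 16 constitutive proteasome genes 0 were called by edgeR's quasi-likelihood test, and 0 by DESeq2, the exactTest and the likelihood ratio test, with 2 at an unadjusted p under 0.05 and a median of -0.02. The lowest p values there were those of Psme3 (0.21), Psmb7 (-0.19) and Psmb5 (-0.10).

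Of 9 genes of peptide loading and trimming 0 were called by edgeR's quasi-likelihood test, and 0 by the other 3 tests, with 4 at an unadjusted p under 0.05 and a median of -0.03. Erap1, which trims peptides in the endoplasmic reticulum, gave 0.25 (edgeR adjusted p = 0.176). Tapbpl, a relative of tapasin that edits peptides, gave 0.29 (edgeR adjusted p = 0.200), and the chaperone Hspa5 gave -0.27 (edgeR adjusted p = 0.212). Of 14 further heavy chain genes tested, out of 17 listed, 0 were called by the quasi-likelihood test, DESeq2 and the likelihood ratio test and 2 by the exactTest, with 6 at an unadjusted p under 0.05 and a median of 0.27. H2-Q6 lay between 2.25 and 3.48 CPM in WT and between 3.58 and 9.41 CPM in KO Tg-SwDI mice, without overlap (log2 fold change 1.14, SE 0.350, edgeR adjusted p = 0.0916). H2-Q7, like H2-Q6 a gene of the nonclassical Qa-2 molecules, gave 1.06 (edgeR adjusted p = 0.119), and H2-Q4 gave 0.85 (edgeR adjusted p = 0.105). In KO mice 9 of these 14 were called higher with the transgene than without it, where 12.5% of all genes were.

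Of 12 genes for factors that act on class I promoters, 1 was called higher. This was Rela, the p65 subunit of NF-kappaB, between 25.9 and 28.5 CPM in WT and between 31.4 and 43.5 CPM in KO Tg-SwDI mice, without overlap (log2 fold change 0.37, SE 0.0761, edgeR adjusted p = 0.0144), and it was also called in the interaction (0.55, SE 0.108, edgeR adjusted p = 0.0199). Its interaction call was lost without WT Non-Tg mouse 2 or KO Non-Tg mouse 7 (edgeR adjusted p up to 0.0533), with the choroid plexus covariate (edgeR adjusted p = 0.0517) and with GC and length trends removed (0.40, edgeR adjusted p = 0.0913), and its KO against WT call with the 10 compared mice alone (edgeR adjusted p = 0.0796). Creb1 gave -0.17 (edgeR adjusted p = 0.0702) and Irf2 0.18 (edgeR adjusted p = 0.192). In KO against WT Tg-SwDI mice DESeq2 called 1 of the 12 higher and 1 lower. The exactTest and the likelihood ratio test each called 1 higher and 0 lower there. In the interaction, DESeq2 and the likelihood ratio test each called 1 higher and 1 lower.

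The members moved together from mouse to mouse, with B2m apart from the rest. After the group mean was subtracted, the log2 CPM of each member was correlated over the 20 mice with the mean of the other 9, as a description, since the mice share libraries between genes. Pearson's r was 0.949 for H2-K1, 0.908 for H2-T23, 0.903 for Psmb8, 0.888 for H2-D1 and 0.868 for Tap1, but 0.587 for Tap2 and 0.341 for B2m. KO Tg-SwDI mouse 1 had the highest value of its group for 8 of 10 members. KO Tg-SwDI mouse 8 had the lowest for 9 of 10, yet for B2m it had the highest, 503 CPM, while its H2-K1 stood at 45.5 CPM and its H2-T23 at 8.42 CPM. B2m is also the shortest member, with 860 exonic bases, and has the lowest GC content at 41.2%, against 52.5% to 57.1% for the others. The part of length, GC content and the high mitochondrial share of that library in this was not tested. Among genes outside the lists, those whose centred pattern was most like the mean of the members over the 20 mice were Gbp3 (r = 0.929), Ifi27l2a (0.925), Bst2 (0.917), Trim30a (0.915) and Gbp9 (0.913), each known as interferon-induced.

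**Figure D4:**
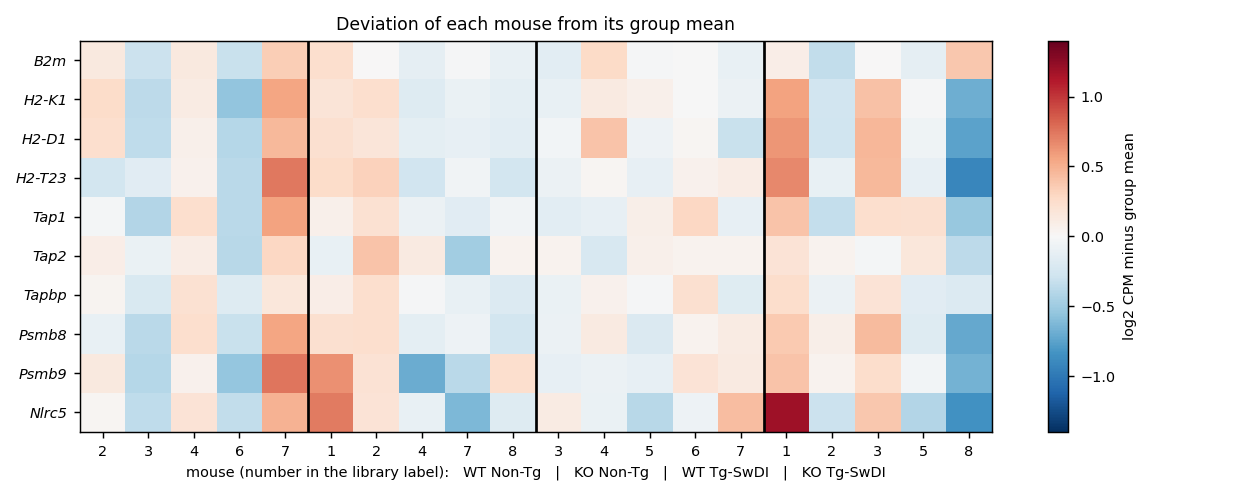
Log2 CPM of each member (rows) in each mouse (columns, by group and library number) minus its group mean, colored from blue (lower) to red (higher). Columns are mostly of 1 color, as in KO Tg-SwDI mouse 1, and in KO Tg-SwDI mouse 8 B2m is red while the other 9 members are blue.

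Cell type markers were measured beside the members, since in bulk tissue more cells of a type and more RNA per cell cannot be told apart. The tissue held the markers of hippocampal neurons, with 8 of 8 tested. The 12 microglia markers summed to 404 to 507 CPM (WT) and 406 to 436 CPM (KO) without the transgene, and to 780 to 928 CPM (WT) and 942 to 1263 CPM (KO) with it, with no overlap between the Tg-SwDI groups, and none of the 12 was at 0. In KO against WT Tg-SwDI mice 4 of the 12 were called higher, Csf1r, Itgam, Sall1 and Siglech, with a median log2 fold change of 0.29, where the median of the members was 0.63. All 12 had positive log2 fold changes, 11 of them at an unadjusted p under 0.05. DESeq2 and the exactTest each called 7 of the 12 higher, and the likelihood ratio test called 6. The study names Csf1r as a target of miR-34a. Mean Csf1r was 187 CPM in WT and 276 CPM in KO Tg-SwDI mice, where the mean sums of the 12 were 872 and 1099 CPM. Csf1r is included in these sums and in the microglia covariate below, and its part in either was not tested. The mean log2 count of the members minus that of the microglia markers was -1.27 ± 0.303 (WT) and -1.43 ± 0.187 (KO) without the transgene and -1.57 ± 0.0975 (WT) and -1.33 ± 0.319 (KO) with it (SD, n = 5), and the ranges overlapped.

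With the mean of the microglia markers as a covariate, the log2 fold change of B2m, KO against WT with the transgene, was 0.75 (edgeR adjusted p = 0.0490), and none of the other 9 members passed. Psmb8 came to 0.14, Psmb9 to 0.21 and Tapbp to 0.13 in that fit, and H2-D1, H2-T23 and Nlrc5 fell below 0, at -0.002, -0.14 and -0.18. Psme1 (0.42, edgeR adjusted p = 0.0160) and Rela (0.41, edgeR adjusted p = 0.0408) passed there too. For the transgene, 0 of 10 members passed with that covariate in either genotype. There B2m had nearly the same log2 fold change as without it, 1.95 in KO (edgeR adjusted p = 0.179) and 0.90 in WT mice (edgeR adjusted p = 0.521), and 18 genes of all in KO and 16 in WT mice were called. Without the covariate, all 12 microglia markers were themselves called higher with the transgene in both genotypes, where 12.5% of all genes in KO and 3.94% in WT mice were.

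Markers of cells that read class I were near the floor. The 14 T and NK cell markers summed to at most 3.87 CPM in each Non-Tg mouse, 1.67 to 3.14 CPM in the WT and 3.13 to 5.49 CPM in the KO mice with the transgene, and 2 of the 14 had enough counts to be tested. These were the T cell receptor genes Trac and Trbc2, with log2 fold changes of 0.56 (SE 0.249, edgeR adjusted p = 0.217) and 1.02 (SE 0.373, edgeR adjusted p = 0.135) in KO against WT mice with the transgene, both at an unadjusted p under 0.05. In KO mice 1 of the pair was called higher with the transgene than without it, where 12.5% of all genes were. Cd8a, the coreceptor for class I, had 2 to 5 counts in each WT Tg-SwDI and 5 to 7 in each KO Tg-SwDI mouse, and Prf1 had 0 to 1 and 0 to 3. The 8 endothelial markers summed to 335 to 368 CPM in WT and 343 to 427 CPM in KO Tg-SwDI mice, and 6 border macrophage markers to 6.45 to 10.9 and 7.56 to 16.9 CPM. Choroid plexus markers ran from 397 to 5705 CPM in WT and from 413 to 5542 CPM in KO Tg-SwDI mice. Of the other marker lists, 1 of 8 endothelial (Ly6c1) and 1 of 6 astrocyte markers (Gfap) were called higher in KO than WT animals with the transgene. By edgeR's quasi-likelihood test 0 of 6 border macrophage, 11 choroid plexus, 8 neuron, 6 oligodendrocyte and 4 tested blood markers were called, with 2, 0, 1, 0 and 0 at an unadjusted p under 0.05. DESeq2, the exactTest and the likelihood ratio test also called 0 of these, other than 1 border macrophage marker by each of the latter tests. The part of these cell types in the results was not tested beyond the fits named.

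**Figure D5:**
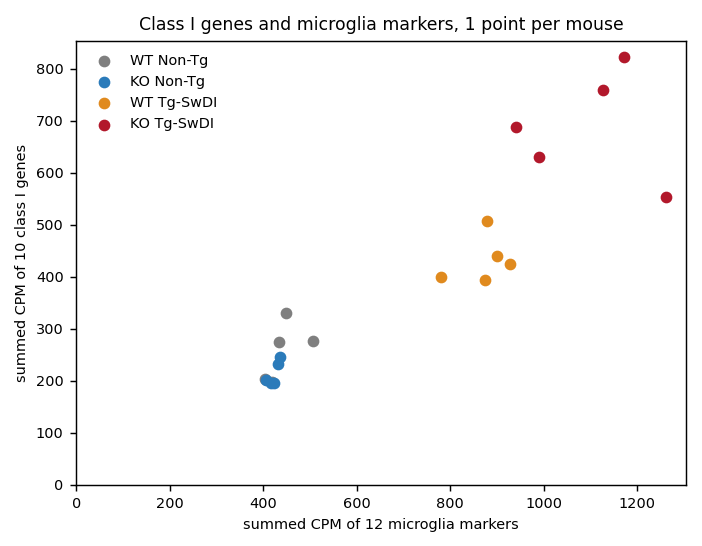
Summed CPM of the 10 members (y axis) against the summed CPM of 12 microglia markers (x axis), 1 point per mouse, colored by group. The KO Tg-SwDI mice lie at 942 to 1263 CPM of microglia markers and 553 to 822 CPM of class I genes, above and to the right of the WT Tg-SwDI mice at 780 to 928 and 394 to 508. B2m makes up most of the class I sum, on average 393 of 690 CPM in KO and 232 of 433 CPM in WT Tg-SwDI mice. In KO Tg-SwDI mouse 8 it gives 503 of 689 CPM. Taken singly, B2m alone separates these groups.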

How the data were processed

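Hippocampal RNA from 20 mice was sequenced as stranded mRNA libraries, 1 per mouse. The authors aligned reads to mm10 with STAR and deposited raw read counts per ENSEMBL gene from FeatureCounts; versions, the strand setting and the treatment of reads matching several genes are not given in the sources used here. GENCODE M21 matched 38872 of 39056 gene identifiers (99.5%). The members and lists were chosen with earlier results of these data known. Groups came from the labels.

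Counts were scaled by TMM, filtered by filterByExpr (minimum count 10, minimum total 15) and fitted to 4 group means with edgeR 4.0.16 (robust quasi-likelihood, 16 residual degrees of freedom, R 4.3.3, limma 3.58.1), and p values were adjusted over 16107 genes at an FDR of 0.05. The study bred the Tg-SwDI groups as littermates, but litters of single mice are not given in the sources used here. The main edgeR p values set each difference against the spread between mice, pooled for each gene over all 4 groups. Mice were taken as independent. Ratios used exact permutation tests. Every member was named, and of each other list of the route the genes past the FDR in KO against WT Tg-SwDI mice or in the interaction, with up to 3 others of lowest p in the former, and the 5 most alike genes outside the lists. The result of 1 gene that this rule names is not reported here. Cell type markers and Thy1 fall outside this rule, and those named were chosen after their values were seen. Motifs were searched with Python 3.11.15. The scripts were tested on simulated data.

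Alternatives were DESeq2 1.42.0, the exactTest, the likelihood ratio test, no filter, a mean CPM of at least 1, RLE factors, library size alone, the 10 compared mice alone, a replicate block, the microglia or choroid plexus list as covariate, removal of GC and length trends, no pseudocount for ratios, and each mouse left out. Libraries held 19549622 to 21066868 counts, of which Nlrc5 had 14 to 157 and Psmb9 20 to 126.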

Additional observations from a re-analysis of the deposited data

Results flagged for a closer look

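Tap2 in WT Tg-SwDI mouse 4 stood apart from its group, at 8.03 CPM where the nearest of the other 4 mice had 9.70 CPM, a gap of 0.890 of the whole range. It was the only 1 of 40 groups of 5 values (10 members in 4 groups) past Dixon's 95% limit, and chance flags about 1 in 20 groups.

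The miR-34a effect on B2m differed between Tg-SwDI and Non-Tg mice by a log2 of 1.06 in the interaction test, being 0.76 in the former and -0.29 in the latter.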

How the results depend on the processing

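The count of members called in KO against WT Tg-SwDI mice, 4, fell to 2 with no filter on low counts and with the 10 compared mice alone, to 1 with library size alone, with the microglia covariate and with GC and length trends removed, and to 0 with the replicate block. It was 5 by DESeq2 and the likelihood ratio test, 6 by the exactTest and 1 to 6 with 1 mouse left out. For the transgene in KO mice, 10 fell to 0 with the microglia covariate, where B2m still had a log2 fold change of 1.95 (adjusted p = 0.179, edgeR). In WT mice, 2 became 4 by the exactTest, 1 with no filter, library size alone or the choroid plexus covariate, 0 with the microglia covariate and 1 to 4 with 1 mouse left out. The interaction count, 1, became 5 by DESeq2, 4 by the likelihood ratio test, 0 with the replicate block or the microglia covariate and 0 to 4 with 1 mouse left out. Calls over all genes moved in these fits as well. With 1 mouse left out, 78 to 701 genes were called for KO against WT Tg-SwDI mice and 14 to 500 in the interaction. Over the other settings except the replicate block, 58 to 733 and 24 to 482 genes were called. The log2 difference of Psmb10 over Psmb7 was 0.32 to 0.42 with 1 mouse left out. With the microglia covariate these log2 values turned below 0: in KO against WT Tg-SwDI mice H2-D1 -0.0017, H2-T23 -0.14, Nlrc5 -0.18 and Psmb10 -0.0569; for the transgene in KO mice H2-K1 -0.81, H2-D1 -0.70, H2-T23 -1.03, Tap2 -0.22, Tapbp -0.26, Psmb8 -0.61, Psmb9 -1.08 and Nlrc5 -1.29, and in WT mice H2-K1 -0.96, H2-D1 -0.78, H2-T23 -1.08, Tap1 -0.40, Tap2 -0.45, Tapbp -0.49, Psmb8 -0.86, Psmb9 -1.42 and Nlrc5 -1.33; and in the interaction Psmb10 -0.0511. In Non-Tg mice the choroid plexus covariate gave H2-D1 0.0170 and Tap1 0.0322, and Tap2 ran from -0.21 to 0.0012 (without KO Non-Tg mouse 7) with 1 mouse left out. The cause of these changes was not tested. What the numbers in the labels stand for is not given. The deviations of 16 same-numbered pairs of mice correlated at a median of -0.04, with 2 above 0.1, against 0.01 for 134 differently numbered pairs. These medians cannot show whether same-numbered mice were paired, for example by litter. With the 10 compared mice alone, Psme1 gave 0.30 (adjusted p = 0.120) and Rela 0.37 (edgeR adjusted p = 0.0796). With GC and length trends removed, B2m gave 0.76 (edgeR adjusted p = 0.00884), Psme1 0.21 (adjusted p = 0.0832) and Rela 0.27 (adjusted p = 0.0495).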
